A study of Mus musculus with 8 samples.

Results

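Antisense long noncoding RNAs (lncRNAs) and the mRNAs of the genes they overlap were measured in mouse brainstem for 4 pairs, which are 2010012P19Rik with Tnfsf12-Tnfsf13, AK155933 with Lrrk1, AK158573 with Gbe1, and Gm15396 with Napsa. The 8 transcripts were read by 1 probe each, which makes 8 of the 60930 non-control probes of the array. The pairs were chosen by the values of these same 8 arrays, since lncRNA and mRNA were both listed by the study as at least 2-fold lower in DBA/1 than in C57BL/6 mice. Their strain differences are therefore given as a description without a test.

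A one-color Agilent array for mouse lncRNAs and mRNAs was hybridized with brainstem RNA of 1 mouse at a time, for 4 mice of each strain. All 8 mice were males aged 5 weeks, of the substrains DBA/1JNCrlj and C57BL/6JNifdc. DBA/1 is an inbred strain used as a model of audiogenic seizures with respiratory arrest, and C57BL/6 was the control strain. No mouse had been tested for seizures or given a treatment, and the whole brainstem was taken under isoflurane. In such bulk tissue, fewer cells of a type and less RNA per cell cannot be told apart. Whether the strains differ in sequence where the probes bind was not tested. The fold values below therefore compare signals, and the part of such differences in them is not known here. The 8 arrays lay on 1 slide with C57BL/6 in one row and DBA/1 in the other, so row and strain cannot be told apart. The replicate number of a mouse was also the column of its array on the slide. Strength of signal differed as well, and DBA/1 replicate 3 was the weakest array, with a 75th percentile of the intensity of 47.1 against 63.0 to 109 on the other 7. Probes well above background numbered 32500 to 35945 per C57BL/6 array and 28699 to 33197 per DBA/1 array. The part of this difference in the values of the pairs was not tested. As a check of the tissue, Tph2, which encodes the enzyme that starts serotonin synthesis in neurons of the raphe nuclei, was well above background on all 8 arrays, with log2 signals of 11.39 ± 0.21 (SD, n = 4) in DBA/1 and 9.76 ± 0.65 (SD, n = 4) in C57BL/6 mice. Of 39 markers of brain cell types, Tph2 was the one whose mRNA had a named probe among those read here. Probes had names here only where the study listed them for a strain difference. Tph2 therefore cannot show whether the strains were dissected alike. The part of cell makeup in the values of the pairs was not tested.

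A natural antisense RNA is transcribed from the strand opposite to a gene and overlaps it. Such RNAs can lie head to head across the gene's start, tail to tail across its end, or wholly inside the gene, and some affect the amount, splicing or translation of the sense RNA while others have no known effect. The 4 sense genes have unrelated products. Tnfsf12-Tnfsf13 is a readthrough transcript that joins the neighboring genes of the cytokines TWEAK and APRIL, both ligands of the tumor necrosis factor (TNF) superfamily. Gbe1 encodes the glycogen branching enzyme, whose loss leaves poorly branched glycogen in nerve, muscle and liver. Napsa encodes napsin A, an aspartic protease best known from lung and kidney. Lrrk1 encodes a large leucine-rich repeat kinase with a GTPase domain, related to the Parkinson's disease kinase Lrrk2 and known for its role in osteoclasts. No function of the 4 lncRNAs is given here.

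A signal on this array is the binding of labeled RNA to a probe of 60 bases, so the probe decides which RNA was counted. The probe sequences below, as the array's design gives them, are shown because the members of a pair lie on opposite strands of the same locus, so that what each probe shares with its partner matters. All are printed in lower case, and no base is marked.

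2010012P19Rik: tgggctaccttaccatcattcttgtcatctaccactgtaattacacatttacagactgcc
Tnfsf12-Tnfsf13: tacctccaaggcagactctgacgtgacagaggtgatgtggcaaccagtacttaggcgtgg
AK155933: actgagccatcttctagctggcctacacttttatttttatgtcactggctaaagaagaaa
Lrrk1: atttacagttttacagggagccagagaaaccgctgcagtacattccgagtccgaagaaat
AK158573: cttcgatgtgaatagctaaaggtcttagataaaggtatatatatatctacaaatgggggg
Gm15396: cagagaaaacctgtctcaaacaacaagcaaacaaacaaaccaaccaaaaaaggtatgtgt

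No partner probes were alike. The longest run of bases that the 2 probes of a pair had in common was 5 to 7 on the same strand and 5 or 6 against the opposite strand, over all 4 pairs, with the probes of Gbe1 and Napsa included. The probes of a pair also lay apart on the chromosome, by 6.60 kb for 2010012P19Rik and Tnfsf12-Tnfsf13, by 6.38 kb for Gm15396 and Napsa, by 30.1 kb for AK155933 and Lrrk1, and by 255 kb for AK158573 and Gbe1. The GC content of the 8 probes ran from 21.7% (Gbe1) to 55.0% (Tnfsf12-Tnfsf13). For 2 probes the annotation names another transcript that can bind. The Tnfsf12-Tnfsf13 probe also matches the mRNA of Tnfsf13, so its signal counts APRIL transcripts and the readthrough together, and the 2010012P19Rik probe also matches another transcript of the annotation. Matches of the probes, that of Gm15396 included, to RNAs that the annotation does not name were not looked for.

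The 4 loci differed in how the RNAs overlap (positions are of GRCm38, counted from 1, and exon structures were not used here). 2010012P19Rik lies on the plus strand of chromosome 11 from 69684501 to 69691141, and all of its 6641 bases lie within Tnfsf12-Tnfsf13, which runs on the minus strand from 69682577 to 69696098. Its probe covers its last 60 bases, from 69691082 to 69691141. RefSeq names the lncRNA Tnfsf13os and begins it further upstream, at 69682032. The extent of that longer form also covers the annotated interval of the Tnfsf12-Tnfsf13 probe, 69684291 to 69684484. This interval lies 16 bases outside the listed 2010012P19Rik transcript. It spans 194 bases, which a probe of 60 bases cannot fill, so where in it the probe binds is not known here. Whether an exon of the lncRNA covers the probe was not tested. The intervals of the Gm15396, Lrrk1 and AK155933 probes, of 100, 94 and 70 bases, are also longer than the probe.

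AK155933 is an intronic antisense lncRNA by the study's classes, on the plus strand of chromosome 7 from 66309195 to 66312519. Its 3325 bases are 2.57% of Lrrk1, which spans 129.6 kb on the minus strand from 66258747 to 66388341. The transcript starts 79.1 kb downstream of the start of Lrrk1.

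AK158573 and Gbe1 lie head to head on chromosome 16. AK158573 runs on the minus strand from 70312876 to 70314347, and Gbe1 on the plus strand from 70313949 to 70569720. They share 399 bases, which are 27.1% of the lncRNA and 0.156% of the gene. The annotation gives the AK158573 probe an interval of 1420 bases, from 70312928 to 70314347, which a probe of 60 bases cannot fill, so where in this interval it binds is not known here.

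Gm15396 and Napsa lie tail to tail on chromosome 7. Gm15396 runs on the minus strand from 44579968 to 44590624 and Napsa on the plus strand from 44572445 to 44586846, and 6879 bases are shared. The Napsa probe covers the last 60 bases of Napsa, from 44586787 to 44586846, and lies inside Gm15396 on the other strand.

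**Figure D1:**
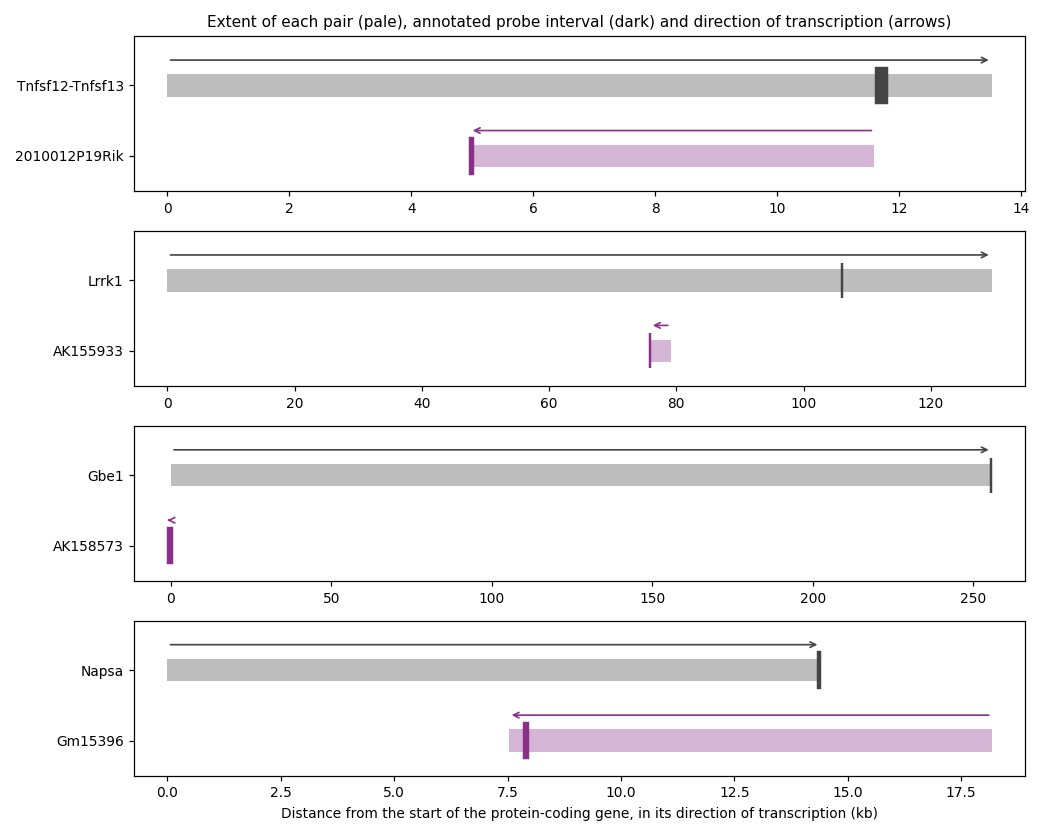
Extent of both transcripts of each pair in kb from the start of the protein-coding gene, in its direction of transcription, with the gene in grey, the lncRNA in purple, the annotated probe interval in dark and arrows for the direction of transcription. AK158573 sits at the start of Gbe1 and the other 3 lncRNAs lie further downstream, with 2010012P19Rik and AK155933 wholly within the gene.

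Of the 4 pairs, AK158573 and Gbe1 are the one in which the lncRNA covers the promoter of the listed sense transcript. 2010012P19Rik covers the start of Tnfsf13, at 69685554 on the minus strand, whose mRNA the Tnfsf12-Tnfsf13 probe also matches. The 250 bases before the start of Gbe1, chr16:70313699-70313948 on the plus strand of GRCm38.p6 from RefSeq, lie wholly inside AK158573 and are shown for that reason.

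Gbe1 promoter: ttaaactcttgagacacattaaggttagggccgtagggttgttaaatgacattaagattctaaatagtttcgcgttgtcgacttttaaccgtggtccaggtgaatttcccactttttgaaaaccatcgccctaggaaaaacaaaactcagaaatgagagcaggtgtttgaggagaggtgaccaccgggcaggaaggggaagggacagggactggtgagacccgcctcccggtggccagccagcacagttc

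This window has a GC content of 48.8% against a median of 52.4% over all promoter windows of that length, and 9 CpG sites against a median of 6. Both strands were searched for 3 short motifs. The GC box, spelled GGGCGG, is in 32.7% of all 32851 windows. The TATA box was searched as TATAAA and is in 12.4% of them. The CCAAT box, searched by the letters of its name, is in 33.8%. The Gbe1 window holds none of the 3. The promoter window of Lrrk1 has a GC content of 62.4%, 15 CpG sites and 3 GC boxes, and that of Tnfsf12-Tnfsf13 has 45.2%, 2 CpG sites, 1 GC box and 1 CCAAT box. A match is a run of letters and not a bound site, and its absence says only that these letters are not in the window.

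Values below are log2 signals after quantile normalization of the 8 arrays, in which intensities under 5 had been raised to 5. The lowest possible log2 signal, called the floor, is 2.32. A probe was well above background where the scanner software flagged it so. All 8 transcripts were well above background on all 4 C57BL/6 arrays, while in DBA/1 mice Gbe1 and Gm15396 were so on 4 arrays, 2010012P19Rik on 3, Tnfsf12-Tnfsf13 and Napsa on 1, and AK155933, Lrrk1 and AK158573 on none.

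2010012P19Rik had log2 signals of 6.62, 6.88, 6.96 and 6.61 in C57BL/6 mice, replicates 1 to 4 in that order here and for every transcript below. In DBA/1 mice it had 4.14, 4.17, 3.82 and 4.43. The lowest C57BL/6 mouse lay 2.18 above the highest DBA/1 mouse on the log2 scale, the widest gap of the 8 transcripts. The means were 6.77 ± 0.18 (SD, n = 4) in C57BL/6 and 4.14 ± 0.25 (SD, n = 4) in DBA/1 mice, a log2 difference of -2.63 (standard error 0.18), or 6.18-fold lower in DBA/1. Before normalization its intensities were 104 to 150 in C57BL/6 and 9.01 to 22.0 in DBA/1 mice, and the error that the scanner software gives for each spot was 10.1% to 10.2% in the former and 14.1% to 23.4% in the latter.

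Tnfsf12-Tnfsf13, on the other strand, had 4.24, 4.60, 4.03 and 4.22 in C57BL/6 mice and 3.25, 3.24, 3.03 and 3.40 in DBA/1 mice. The strains did not overlap, with a gap of 0.63. Its means were 4.27 ± 0.24 (SD, n = 4) and 3.23 ± 0.15 (SD, n = 4), a log2 difference of -1.04 (standard error 0.18), or 2.06-fold lower. In DBA/1 mice only replicate 4 was well above background, at an intensity of 10.6, while replicate 1 was not at an intensity of 11.4, so this fold rests on 3 DBA/1 arrays that were not well above background.

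Gbe1 was read well above background on all 8 arrays. It had 7.40, 7.77, 7.66 and 7.46 in C57BL/6 mice and 6.24, 6.77, 5.46 and 6.21 in DBA/1 mice. The C57BL/6 mice lay close together at 7.57 ± 0.18 (SD, n = 4), and the DBA/1 mice were spread more widely at 6.17 ± 0.54 (SD, n = 4), with replicate 3 lowest. The log2 difference was -1.40 (standard error 0.25), or 2.64-fold lower in DBA/1, and the strains were separated by 0.63.

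AK158573, the lncRNA across the start of Gbe1, had 4.46, 4.36, 4.26 and 4.26 in C57BL/6 mice and 3.53, 3.14, 2.32 and 2.78 in DBA/1 mice, where replicate 3 was at the floor. No DBA/1 array read it well above background, so its difference is a bound that depends on the limit and the processing used. It was at least 2.18-fold lower in DBA/1, or at least 1.35-fold under a stricter limit given further below. The measured means were 4.33 ± 0.09 (SD, n = 4) and 2.94 ± 0.52 (SD, n = 4). For the bound of 2.18-fold, and for those below outside the stricter limit, each DBA/1 array was given a set value. This was the lowest value at which any probe was well above background on it, or the probe's own value where that was higher. Probes that were not well above background can exceed that lowest value. The difference of AK158573 is therefore not set against that of Gbe1.

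Gm15396 had 6.24, 6.28, 6.14 and 6.37 in C57BL/6 mice and 4.75, 5.22, 4.63 and 4.97 in DBA/1 mice, and like Gbe1 it was well above background on all 8 arrays. The gap between the strains was 0.93. Its means were 6.26 ± 0.09 (SD, n = 4) and 4.89 ± 0.26 (SD, n = 4), a log2 difference of -1.37 (standard error 0.18), or 2.59-fold lower in DBA/1. Whether its probe also reads other RNAs was not looked for, so this fold is that of the probe's signal.

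Napsa had 5.05, 5.51, 5.63 and 5.57 in C57BL/6 mice and 2.82, 3.18, 2.32 and 4.14 in DBA/1 mice. Replicate 4 of DBA/1 was the one well above background, at an intensity of 17.8, and replicate 3 was at the floor. This was the widest spread of the 8 transcripts within a strain, 3.11 ± 0.77 (SD, n = 4), against 5.44 ± 0.26 (SD, n = 4) in C57BL/6 mice. The strains still did not overlap, with a gap of 0.92. The measured log2 difference was -2.32 (standard error 0.33), or 5.00-fold lower, and it rests on 3 DBA/1 arrays that were not well above background.

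Lrrk1 had 4.32, 4.09, 4.04 and 4.11 in C57BL/6 mice and 3.15, 2.32, 3.36 and 2.32 in DBA/1 mice. Replicates 2 and 4 of DBA/1 were at the floor, and none of the 4 was well above background. The bound for Lrrk1 was at least 1.93-fold lower in DBA/1, or at least 1.19-fold under the stricter limit. Its measured means were 4.14 ± 0.12 (SD, n = 4) and 2.79 ± 0.54 (SD, n = 4), with a gap of 0.69. Scaling set the order of its DBA/1 mice, since replicate 1 had the higher intensity, 10.7 against 6.43 in replicate 3, and the lower log2 signal.

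AK155933, inside Lrrk1, had 5.06, 4.93, 4.35 and 3.73 in C57BL/6 mice, the widest spread of the 8 in that strain. In DBA/1 mice it had 2.36, 2.32, 2.32 and 2.32, so 3 of 4 were at the floor, and the intensities before the floor were 1.79 to 5.72 with spot errors of 44.7% to 101%. It was at least 2.57-fold lower, with measured means of 4.52 ± 0.61 (SD, n = 4) and 2.33 ± 0.02 (SD, n = 4). The small SD in DBA/1 is that of the floor and not of the RNA. Under a stricter limit, the highest value of any probe not well above background on the array, the bounds were at least 1.54-fold for AK155933, 1.19-fold for Lrrk1 and 1.35-fold for AK158573. All of these bounds hold only for the floor and scaling used here, and they carry no sampling error. With normexp, described further below, the log2 differences were -0.44, -0.24 and -0.23 in that order, smaller than the bounds.

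**Figure D2:**
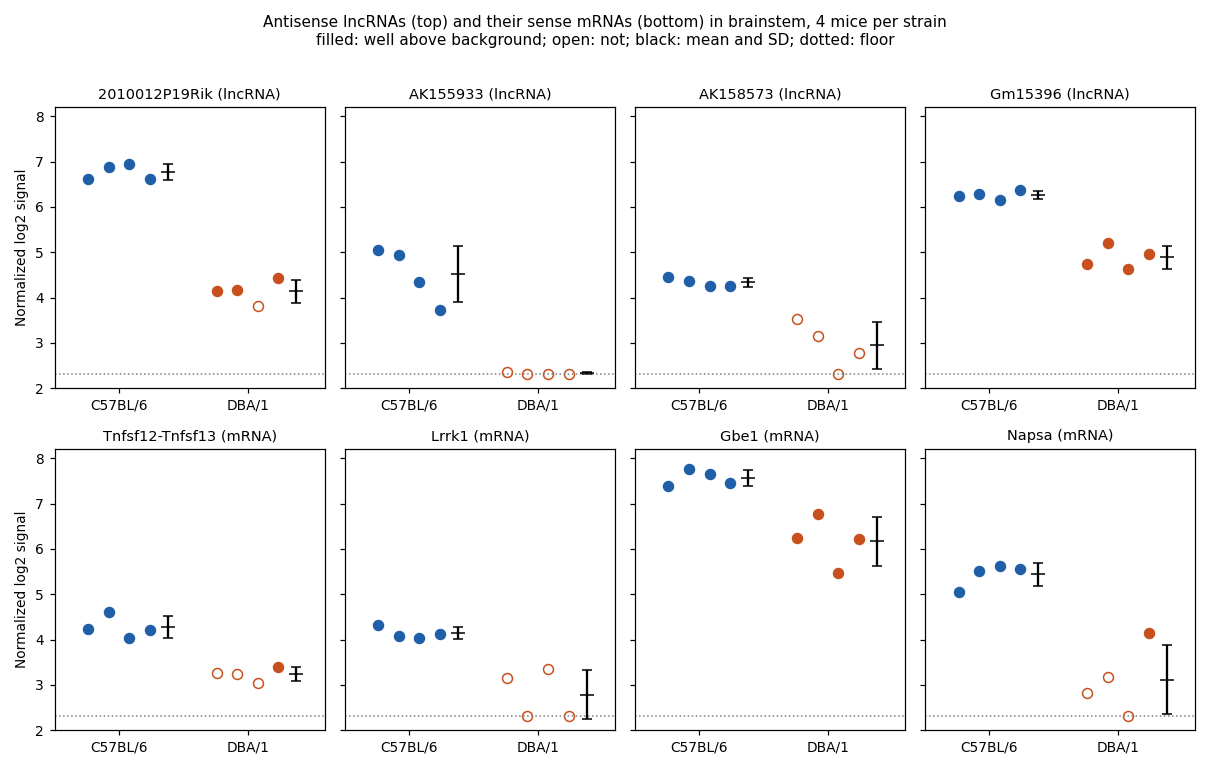
Normalized log2 signal of the 4 antisense lncRNAs in the upper row and of their sense mRNAs below them, with 1 point per mouse in replicate order, filled where the probe was well above background, and mean and SD in black beside the points. The dotted line is the floor at 2.32, and in all 8 panels each DBA/1 mouse lies below each C57BL/6 mouse.

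All 8 transcripts had a highest DBA/1 value below the lowest C57BL/6 value, as did 7.55% of the 33111 tested probes. All 8 also met the criterion that had chosen them, at least 2-fold at an unadjusted p under 0.05, which 4.37% of tested probes met in either direction and 3.32% in the lower direction. With the adjusted p in its place they all did so again, against 2.95%. The choice of members fixed these counts, and nothing is read from them. The criterion lies at a log2 difference of -1. The member nearest to it was Tnfsf12-Tnfsf13 at -1.04, and the nearest tested probes inside and outside it were at -1.0004 and -0.9996.

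The pairs were chosen by the difference between the strains, and how their members vary among mice of 1 strain is another measure. For it each value was set against the mean of its own strain. In 2010012P19Rik and Tnfsf12-Tnfsf13, both deviations had the same sign in 7 of 8 mice, and the exception was C57BL/6 replicate 3, at 0.19 for the lncRNA and -0.24 for the mRNA. DBA/1 replicates 1 and 2 lay at most 0.03 from the strain mean in both transcripts, and Tnfsf12-Tnfsf13 was well above background in 1 of the 4 DBA/1 mice, so the signs there carry little. In Gm15396 and Napsa it was also 7 of 8, again with C57BL/6 replicate 3 as the exception, at -0.11 and 0.19, but 6 of 8 under scaling to the 75th percentile, without the floor and in the authors' table. AK155933 and Lrrk1 had the same sign in 6 mice and AK158573 and Gbe1 in 5. Napsa was well above background on 1 DBA/1 array, and AK158573 and Lrrk1 on none, so the signs there carry little too. When each of the 31871 tested probes with values on all 8 arrays was set against the same lncRNAs, the median was 4 of 8 for each pair. The share of tested probes that reached the partners' counts is not given here, so these counts are not called unusual. For AK155933, 3 of the 4 DBA/1 deviations are those of the floor, at -0.01, so its count of 6 rests in DBA/1 mice on values with no order.

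The sizes of the deviations differed between the pairs. The root mean square gap between the deviations of lncRNA and mRNA over the 8 mice was 0.19 for 2010012P19Rik and Tnfsf12-Tnfsf13 and 0.28 for AK158573 and Gbe1, on the log2 scale. Set against the same lncRNAs, the median over the 31871 tested probes with values on all 8 arrays was 0.33 and 0.41. Both gaps were below that median. A probe that varies little also has a small gap, whether or not it follows the lncRNA. The size of a gap is therefore not read as shared variation. In Gm15396 and Napsa the gap was 0.43 against 0.32, and in AK155933 and Lrrk1 it was 0.47 against 0.42, both wider. All of these gaps include DBA/1 values that were not well above background. AK158573 was well above background on no DBA/1 array and Tnfsf12-Tnfsf13 on 1, which limits the 2 smaller gaps. Each strain held 4 mice, and no correlation was computed.

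In single mice, most of the 8 transcripts deviated the same way. DBA/1 replicate 3 was the lowest of its strain in 2010012P19Rik (-0.32 from the strain mean), Tnfsf12-Tnfsf13 (-0.20), AK158573 (-0.62), Gbe1 (-0.71), Gm15396 (-0.26) and Napsa (-0.79), and above the mean in Lrrk1 (0.57). Only 1 of the 8 transcripts was above the strain mean in that mouse, whereas 58.6% of all tested probes were. The array of DBA/1 replicate 3 also had the lowest 75th percentile of the intensity, the fewest probes well above background and 42.1% of probes at the floor, the highest share of the 8 arrays, and the part of this in the deviations was not tested. In C57BL/6 replicate 2, 7 of the 8 transcripts were above the strain mean, as were 64.0% of all tested probes.

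**Figure D3:**
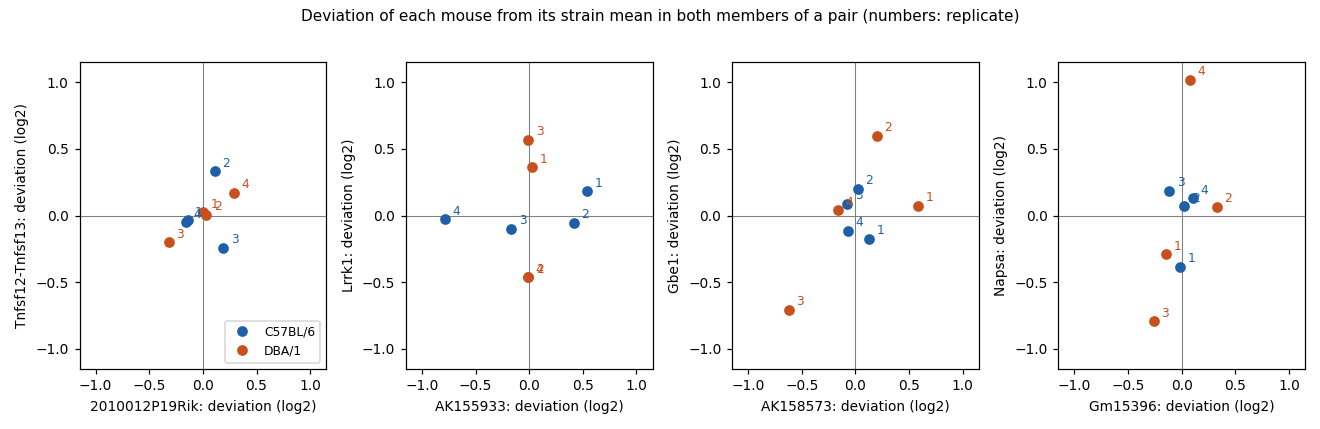
Deviation of each mouse from its strain mean on the log2 scale, with the lncRNA on the horizontal and the mRNA on the vertical axis, 1 panel per pair, blue for C57BL/6, orange for DBA/1 and numbers for replicates. DBA/1 replicate 3 lies in the lower left of 3 panels, and in the panel of AK155933 and Lrrk1 the DBA/1 mice stand in a column because the lncRNA was at or near the floor.

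The partner was not the transcript most like a member in any of the 4 pairs. Likeness was measured as the root mean square difference of the log2 signals over the 8 arrays, each centered on its mean, among 1157 tested probes that the study's lists name. Nearest to 2010012P19Rik was a noncoding transcript of Qsox1 at 0.14, with Tnfsf12-Tnfsf13 at 0.82. Nearest to Tnfsf12-Tnfsf13 was the lncRNA Gm4524 at 0.13. For AK158573 it was the lncRNA AK083662 at 0.11, with Gbe1 at 0.28, and for Gbe1 it was the mRNA of Snx22 at 0.15.

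For Gm15396 the nearest was the mRNA of Pitpna at 0.11 and for Napsa the lncRNA AK027967 at 0.27, while the partners were 0.64 apart. For AK155933 it was 4930486I03Rik at 0.21 and for Lrrk1 A430018G15Rik at 0.21, both lncRNAs, with 0.63 between the partners. Many of these members' DBA/1 values were not well above background, so the distances are not ranked between pairs. These names come from probes that the study had picked for their strain difference, so most of what this measure compares is that difference. The median distance over the compared probes was 0.78 for 2010012P19Rik, 0.58 for Tnfsf12-Tnfsf13, 0.59 for AK158573 and 0.58 for Gbe1. It was 0.50 for Gm15396, 0.81 for Napsa, 0.68 for AK155933 and 0.68 for Lrrk1.

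Transcripts near the pairs were looked up in the same lists, within 300 kb. Near Gm15396 and Napsa, 3 were listed. Mybpc2, a myosin-binding protein gene 47.8 kb away, had log2 signals of 2.49 ± 0.20 (SD, n = 4) in DBA/1 and 4.20 ± 0.38 (SD, n = 4) in C57BL/6 mice, and was well above background on no DBA/1 array. The lncRNA AK017368 at 87.0 kb had 4.19 ± 0.37 (SD, n = 4) and 5.47 ± 0.16 (SD, n = 4). Fam71e1 at 71.3 kb went the other way, with 4.88 ± 0.34 (SD, n = 4) in DBA/1 and 3.30 ± 0.35 (SD, n = 4) in C57BL/6 mice. Near 2010012P19Rik, 2 noncoding transcripts were listed, 1700064E03Rik at 280 kb and one of Kdm6b at 278 kb, and both were at the floor on all 4 DBA/1 arrays, with 4.64 ± 0.38 (SD, n = 4) and 3.99 ± 0.43 (SD, n = 4) in C57BL/6 mice. Near AK155933 and AK158573 none was found in the lists as read here, of which the lncRNA list was incomplete. A probe outside the lists has no name here, so these counts do not say how other neighbors behaved.

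Genes that share a pathway with the 4 sense genes could be read only where the lists name them. Of 26 genes of TNF ligands and receptors, 3 had a named tested probe. Tnfsf10, which encodes the death ligand TRAIL, had 2.72 ± 0.34 (SD, n = 4) in DBA/1 and 3.78 ± 0.42 (SD, n = 4) in C57BL/6 mice, and no DBA/1 array read it well above background. Tnfrsf1b, which encodes a receptor of TNF, had 4.06 ± 0.72 (SD, n = 4) and 5.13 ± 0.31 (SD, n = 4). Lta, which encodes lymphotoxin alpha, was the one with the higher level in DBA/1 mice, 5.97 ± 0.33 (SD, n = 4) against 3.80 ± 0.33 (SD, n = 4).

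For glycogen metabolism, no gene other than Gbe1 is described here. Of 16 genes around Lrrk1 and 15 lysosomal and aspartic proteases, Lrrk1 and Napsa alone were named. How many of the other genes in these lists differed was not analysed here.

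The 4 pairs were set beside the other antisense pairs of the study's lists. As read here these hold 174 antisense lncRNA probes, 113 natural and 61 intronic, and for 7 of them an mRNA probe of the sense gene is listed as well, which makes 9 pairs of probes. In 7 of these 9 both RNAs differed in the same direction, and in 5 both were lower in DBA/1 mice, which are the 4 pairs described and Gm15247 with Mid1, at log2 differences of -1.06 and -1.73. AK017289 and its sense genes H2-L and H2-D1, of the major histocompatibility complex, were all higher in DBA/1 mice, at 2.52, 1.05 and 1.34. Of the pairs read here, opposite directions were found for AK087052, inside the ion channel gene Trpm3, at 1.76 against -1.05 and -1.03 for the 2 Trpm3 probes. Every RNA in these lists had been picked for a strain difference and the lncRNA list was read in part, with further antisense pairs of the study not analysed here, so the counts describe the probes read and are no test of whether antisense pairs move together.

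The direction of all 8 differences was the same under each way of processing that was tried, and their size was not. When normexp modeled the background from the median intensity of spot and surroundings, all 8 were smaller, and 2010012P19Rik alone still differed by a fold change of 2 or more, at a log2 difference of -1.16. The offset of 50 that this method adds is larger than many of the intensities, which ran from 15.8 to 34.8 in C57BL/6 mice for AK155933, Lrrk1, AK158573 and Tnfsf12-Tnfsf13. With scaling to the 75th percentile, Tnfsf12-Tnfsf13 was at -0.98 and the other 7 transcripts kept a fold change of 2 or more.

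**Figure D4:**
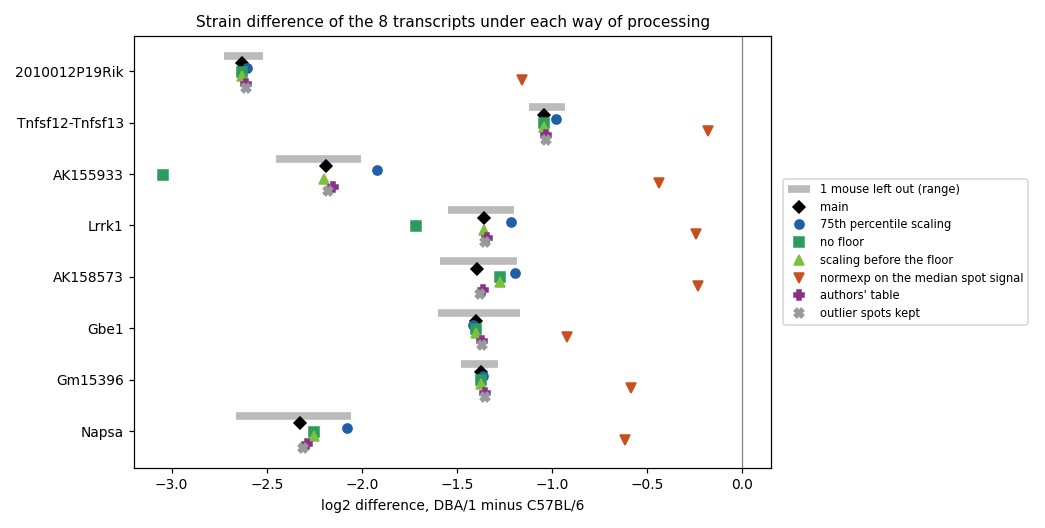
Log2 difference of each transcript, DBA/1 minus C57BL/6, under each way of processing, with the range over the fits that leave out 1 mouse as a grey bar. All values lie below 0, those by normexp nearest to it, and AK155933 without the floor lies farthest at -3.04.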

How the data were processed

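Brainstem RNA of 8 mice was amplified by random priming and hybridized to the Arraystar mouse lncRNA array by the authors. The deposited scanner files hold, per spot, the intensity from Agilent Feature Extraction 11.0.1.1, background-subtracted and detrended within the array, with its error, the median spot and local background intensity, and flags. The authors' table of 60804 probes holds log2 values, quantile-normalized by GeneSpring. The lists of the study's supplement gave names, positions and probe sequences, and their columns of comparisons were not used. No column of normalized values was left unmapped (0).

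From the scanner files, control and outlier spots were left out, 30 probes on several spots were averaged, intensities under 5 were raised to 5, and quantile normalization between arrays was followed by log2. With outlier spots kept this equals the authors' table to within 0.0104 above the floor. Probes in that table well above background on at least 4 arrays numbered 33267, of which 33111 had the values a fit needs. Strains were compared by limma 3.58.1 in R 4.3.3 (lmFit, eBayes, no block), with Benjamini-Hochberg adjustment over all tested probes, and the fit was tested on simulated data. The standard errors of the text are from this fit. Replicates are mice, and the labels call them biological replicates.

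Some genes near the pairs or in the lists are not reported here. The members, the lists of genes and the tests were chosen with earlier results of these data known. Named genes are the 8 members, the listed probe nearest in pattern to each, listed neighbors, the other listed antisense pairs and the genes of the lists. The neighbors and the other antisense pairs were added after values were seen. The alternatives were normexp on median signals with an offset of 50, scaling to the 75th percentile, leaving out the floor or setting it after scaling, the authors' table, outlier spots kept, no filter or a stricter filter on dim probes, the methods' t-test, the replicate number as a block and each mouse left out in turn. Positions are those of the study's lists, whose gene positions match RefSeq on GRCm38. Python 3.11.15 with pandas 2.3.3, numpy 2.4.6 and matplotlib 3.10.9 made the tables and figures.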

Additional observations from a re-analysis of the deposited data

Results flagged for a closer look

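AK155933 in DBA/1 replicate 1 had a log2 signal of 2.36, far from the other 3 DBA/1 mice relative to the range of the strain, because those 3 were at the floor of 2.32. Of 16 groups of 4 mice looked at in this way, 1 stood out, and chance flags about 1 in 20 groups.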

How the results depend on the processing

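Of 120 values of the strain difference under other settings, 111 moved by less than the spread between mice, 9 moved by more and none reversed. With normexp the log2 differences were -1.16 (2010012P19Rik), -0.18 (Tnfsf12-Tnfsf13), -0.44 (AK155933), -0.24 (Lrrk1), -0.23 (AK158573), -0.92 (Gbe1), -0.58 (Gm15396) and -0.61 (Napsa). Without a floor AK155933 was at -3.04. Leaving out 1 mouse at a time gave ranges of -2.72 to -2.52 for 2010012P19Rik, -1.12 to -0.93 for Tnfsf12-Tnfsf13, -2.45 to -2.01 for AK155933, -1.55 to -1.20 for Lrrk1, -1.59 to -1.18 for AK158573, -1.60 to -1.17 for Gbe1, -1.48 to -1.28 for Gm15396 and -2.66 to -2.06 for Napsa. Tnfsf12-Tnfsf13 was above a log2 difference of -1 without C57BL/6 replicate 2 and without DBA/1 replicate 3.

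Over all tested probes, 1446 met the unadjusted and 1270 the adjusted criterion. With normexp these were 378 and 329, and with only the 26202 probes well above background on all arrays 685 and 633, of which Gbe1 and Gm15396 are the members. Leaving out 1 mouse at a time gave 1406 to 1672 and 1111 to 1397. Without the filter on dim probes 5 of the 8 transcripts met the adjusted criterion, and by the methods' t-test 6 did. The cause was not tested.

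The replicate number as a block gave 1421 and 1321 probes, with all 8 transcripts among them. Same-numbered mice of the strains deviated together with r of 0.38, 0.02, 0.13 and 0.35 across probes, and 3 of 4 were most alike to their own number. As 1 of these r was under 0.1, the numbers were not taken to pair the mice. Same-numbered arrays shared a column of the slide, and the part of the column in these r and in the within-strain deviations was not tested.

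Under scaling to the 75th percentile, no floor and the authors' table, the same-sign counts within the strains were 5 to 7 for AK155933 and Lrrk1 and 4 to 5 for AK158573 and Gbe1. Under each of these 3 it was 6 for Gm15396 and Napsa, against 7 as reported, and 7 for 2010012P19Rik and Tnfsf12-Tnfsf13. Signal over background limits AK155933, Lrrk1, AK158573, Napsa and Tnfsf12-Tnfsf13 in DBA/1 mice, and 4 arrays per strain limit the precision throughout.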
